A study of Mus musculus with 12 samples.

Results

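Mammary epithelial cells of C57BL/6 mice were embedded in Matrigel, which is made of basement membrane proteins, where they form spheroids, and their messenger RNA was compared after 96 h and 48 h of culture. The comparison holds 6 of the 12 RNA sequencing libraries of the study, chosen by their labels: 3 spheroid libraries at 48 h and 3 at 96 h. The other 6 libraries, 3 at each time, came from monolayers of the same kind of cells on dishes coated with collagen, and they are used here where the change with time in spheroids is set against that in monolayers. Cells of every group had been detached with trypsin, seeded again, and given progesterone and prolactin, and the medium over the gels was renewed after 48 h. The labels do not say whether the 48 h gels were taken before or after that renewal, nor the age or number of the mice. The series concerns how the surroundings of a cell bear on chromosome segregation, and its design calls the 3 libraries of a group biological replicates. No label ties a library to an animal, so the p-values below measure the spread between these libraries, which may be technical.

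In the mammary gland, luminal cells face the lumen of ducts and alveoli, and myoepithelial cells lie between them and the basement membrane. Progesterone drives the growth of alveoli in pregnancy, and prolactin, through its receptor, the kinase Jak2 and the transcription factor Stat5, turns on milk protein genes in luminal cells that touch a laminin-rich matrix. Cells set into such a matrix gather into hollow, alveolus-like spheroids, and milk protein expression in them is a textbook readout of differentiation.

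Library totals were 8570530 to 10459646 expected counts at 48 h and 12146881 to 13554497 at 96 h, so each 96 h library was deeper than each 48 h library. Of 13951 genes tested with edgeR, 2691 (19.3%) were higher and 2856 (20.5%) lower at 96 h at an adjusted p under 0.05, in all 39.8%. The 3 libraries of each time did not overlap in 53.8% of tested genes, and 38.7% were also past the test. Many genes named below were picked only where these groups did not overlap, so a lack of overlap in those genes follows from that choice. In monolayers 61.3% of genes passed, 30.1% higher and 31.3% lower at 96 h. Counts of called list members below are to be read beside these shares of all tested genes. The changes over 2-fold were 335 rises (2.4%) and 1197 falls (8.58%), so large changes were mostly falls. With the counts of each library thinned to one depth, 2307 genes were higher and 2630 lower. The median log2 fold change over all tested genes was 0.01, and the quartiles were -0.27 and 0.23. The first principal component of the 6 libraries held 70.2% of their variance and separated the times. A log2 fold change is always 96 h against 48 h; rises, falls and values in brackets after a gene are on this scale. Levels are in CPM, counts scaled to the library total with a factor for composition, which can be compared between libraries for a gene but not between genes. Summed levels of a list are scaled to the library total alone. Epithelial markers were present at each time, with Epcam at 849.8 CPM at 48 h and 1171 at 96 h and Krt8 at 2147 and 1920, and the leukocyte marker Ptprc had 8 counts in all at 48 h and 3 at 96 h. In bulk RNA, fewer cells of a type and less RNA per cell cannot be told apart.

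**Figure D1:**
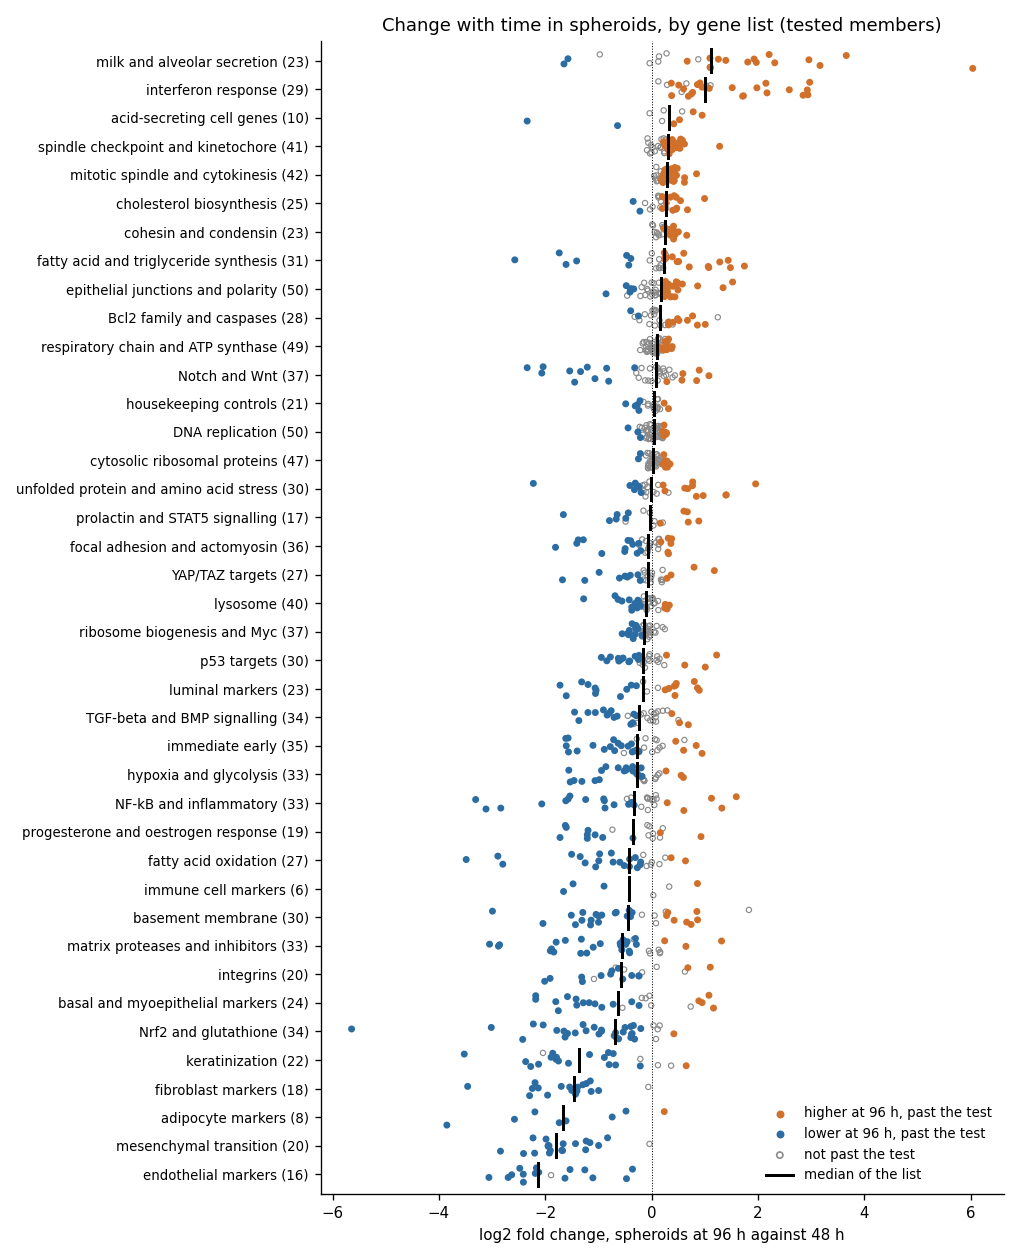
Change with time in spheroids for the tested members of 40 gene lists, ordered by list median. Each point is a gene, placed by its log2 fold change at 96 h against 48 h; filled points passed the edgeR test (orange higher, blue lower), open points did not, bars are list medians, and the number of tested members stands in brackets. Milk genes had the highest median, 1.11, and endothelial markers the lowest, -2.15, though with limma on log2(FPKM + 1) the endothelial median was -0.74 and that of mesenchymal genes, -1.54, lay below it.

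The most prominent rise was in milk proteins. Of 23 tested genes of milk and alveolar secretion, 15 rose and 2 fell, with a median log2 fold change of 1.11, beside 19.3% and 20.5% of all tested genes and a median of 0.01. Caseins carry calcium and amino acids in milk, and each of the 5 casein genes rose. The promoters of Csn1s1 (alpha casein) and Csn2 (beta casein) are shown because these genes lead the rises and because their windows are the only ones of the list's 16 with a promoter entry that hold TTCNNNGAA, the motif bound by Stat5. It was searched on both strands in the 250 bases before the start. Sequences and positions here and below are from RefSeq on GRCm38.p6, another build than that of the counts (mm9), and run 5′ to 3′ along the gene with motif matches in capitals.
Csn1s1 (chr5:87665958-87666207, plus strand): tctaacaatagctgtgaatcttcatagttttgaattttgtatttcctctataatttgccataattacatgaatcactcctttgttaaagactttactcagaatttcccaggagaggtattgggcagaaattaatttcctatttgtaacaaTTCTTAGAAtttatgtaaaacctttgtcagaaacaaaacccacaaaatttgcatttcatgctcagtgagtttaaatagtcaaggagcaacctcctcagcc
Csn2 (chr5:87699426-87699675, minus strand): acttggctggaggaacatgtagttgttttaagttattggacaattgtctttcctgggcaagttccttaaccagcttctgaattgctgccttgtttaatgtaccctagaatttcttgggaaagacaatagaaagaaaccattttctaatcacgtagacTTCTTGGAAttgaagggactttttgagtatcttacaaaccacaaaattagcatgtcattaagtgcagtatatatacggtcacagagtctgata

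The match begins 100 bases before the start in Csn1s1 and 93 bases before it in Csn2. Over all 27025 genes with an entry, 8.1% hold this motif in such a window. It was also searched in the list of prolactin and STAT5 signalling, where 2 of 14 genes with an entry hold it. These were Prlr, which did not pass the test, and Socs3, which fell. Csn1s1 was at 5.39, 5.67 and 4.79 CPM at 48 h and 319, 318 and 407 CPM at 96 h. Every 96 h library lay far above each 48 h library, and the log2 fold change of 6.04 (SE 0.12, adjusted p = 2.83e-16), a 65.7-fold rise, was the largest among all listed genes. Csn2 was at 70.7, 77.2 and 81.0 CPM at 48 h and 894, 875 and 1122 CPM at 96 h, a log2 fold change of 3.66 (SE 0.10, adjusted p = 3e-14). Csn3, kappa casein, which coats casein micelles, was at 386, 423 and 387 CPM at 48 h and 2976, 2991 and 3317 CPM at 96 h, a rise of 2.96 (SE 0.14). The groups did not overlap for any of these 3 genes, as in 53.8% of all tested genes. The third 96 h library was the highest for each of the 3. Csn1s2a rose by 3.17 from a mean of 18.6 to 167 CPM, and Csn1s2b by 2.31 from 1.09 to 5.51. Caseins share stretches of sequence, so the split of reads between Csn1s2a and Csn1s2b is uncertain.

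Other secreted proteins of milk rose as well; those named in this paragraph, other than Lalba, Wap and Plin2, were picked after their values were seen. Ltf encodes lactoferrin, an iron-binding defence protein of milk, and was at 1253, 1411 and 1310 CPM at 48 h and 4568, 5344 and 5188 CPM at 96 h, a 3.80-fold rise with no overlap. Lpo, the lactoperoxidase gene, rose by 2.21 from 1.25 to 5.80 CPM, and Expi, a protease inhibitor of the whey acidic protein family, by 1.81 from 356 to 1246. Lalba encodes alpha-lactalbumin, the subunit that makes lactose synthase, and was at 5.49, 4.98 and 3.45 CPM at 48 h and 12.9, 9.96 and 13.9 CPM at 96 h. Its rise of 1.39 (SE 0.20, adjusted p = 3.58e-05) left it at a low count, 132 at 48 h and 477 at 96 h in all. Wap, the major whey protein gene of the mouse, had no count at 48 h and 2 counts in a single library at 96 h, below the floor of 3 counts over the group, so it gave no fold. Among genes of the milk fat globule membrane, Btn1a1 rose by 1.10, Muc1 by 1.10 and Mfge8 by 0.67. Plin2, which coats lipid droplets, fell from 893 to 285 CPM (-1.65, SE 0.08, adjusted p = 9.42e-12), and Cidea, which fuses them, fell by 2.98-fold from a low level. Spp1, osteopontin, did not pass the test (-0.04, SE 0.08).

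In monolayers, 11 members of the milk list rose and 2 fell over the same time, with a median of 0.89. The test of the difference itself passed in 53.3% of all tested genes, with the change in spheroids above that in monolayers in 26.9% and below it in 26.4%. Here it passed in 8 members with the spheroid change above and in 4 with it below. Counts of differences in later lists are to be read beside the same shares of all tested genes. Csn1s1 rose in monolayers too (4.25), from 8 to 152 counts in all, and the difference between formats was 1.78 (SE 0.70, adjusted p = 0.0405). Csn2 had a log2 fold change of -0.01 in monolayers, where it held 19 counts at 48 h and 18 at 96 h in all, and the difference was 3.67 (SE 0.59, adjusted p = 4.38e-05). Csn3 rose by 1.11 in monolayers, and the difference was 1.84 (SE 0.20, adjusted p = 3.22e-07). Ltf rose by 2.12 in monolayers, and its difference of -0.20 (SE 0.15, adjusted p = 0.297) did not pass.

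The receptor and signalling genes above the caseins moved less and in both directions. Of 17 tested genes of prolactin and STAT5 signalling, 5 rose and 6 fell, with a median of -0.03, whose sign depends on the processing (-0.07 to 0.02 over the settings tried). Prlr, the prolactin receptor, was at 137, 109.6 and 134 CPM at 48 h and 148, 140.2 and 152 CPM at 96 h, and its change of 0.21 (SE 0.11, adjusted p = 0.135) did not pass the test although the groups did not overlap, as in 53.8% of all tested genes. Jak2, the kinase bound to the receptor, was at 92.1, 83.5 and 78.7 CPM at 48 h and 49.4, 47.0 and 50.4 CPM at 96 h, a 1.73-fold fall with no overlap. Stat5a fell (-0.49, SE 0.07, adjusted p = 2.67e-05), and Stat5b did not pass at -0.15 (SE 0.07). The transcription factors that act with Stat5 in alveolar cells rose: Elf5 by 0.89 (SE 0.06, adjusted p = 4.47e-10), at 144, 137 and 145 CPM at 48 h and 252, 263 and 272 CPM at 96 h, and Nfib by 0.69 (SE 0.08, adjusted p = 9.41e-07). Among the feedback inhibitors that Stat5 induces, Cish rose by 0.61 and Socs2 by 0.67, while Socs1 fell (-1.66) and Socs3 (-0.67). The largest rise in this list, that of Elf5, was smaller than that of any casein gene.

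**Figure D2:**
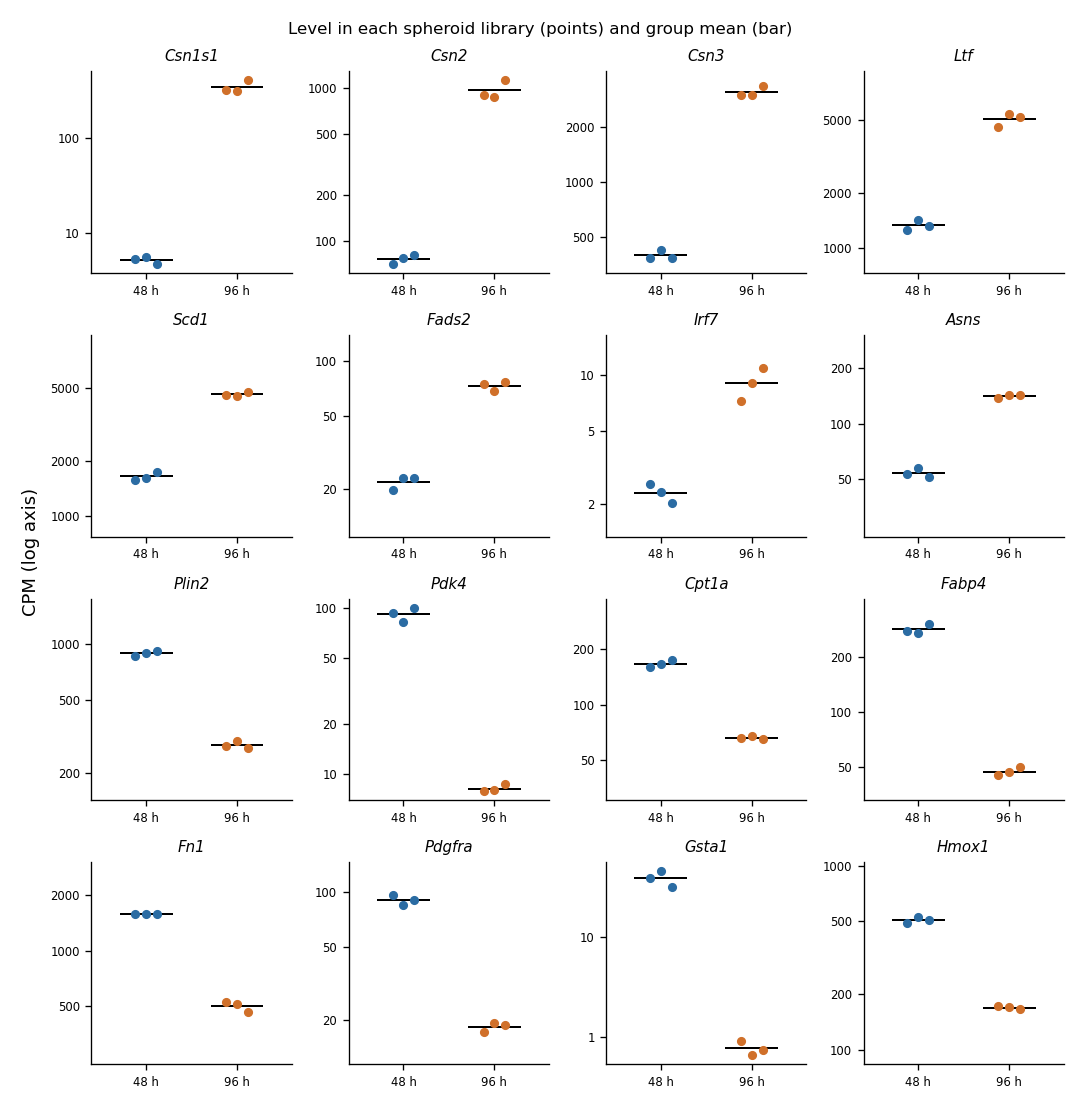
Level of 16 genes in each of the 6 spheroid libraries, as CPM on a log axis scaled per gene; points are libraries (blue 48 h, orange 96 h) and bars are means of 3. The caseins, Ltf, Scd1, Fads2, Irf7 and Asns were higher in each 96 h library, and Plin2, Pdk4, Cpt1a, Fabp4, Fn1, Pdgfra, Gsta1 and Hmox1 lower, with no overlap between times.

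Lipid genes split by function. Of 31 tested genes of fatty acid and triglyceride synthesis, 15 rose and 7 fell (median 0.24), and of 27 genes of fatty acid oxidation 2 rose and 19 fell (median -0.42). Scd1, which makes oleate from stearate, was at 1580, 1618 and 1747 CPM at 48 h and 4560, 4498 and 4751 CPM at 96 h, a rise of 1.48 (SE 0.12). Its close relative Scd2 rose by 1.44, and reads of the 2 may be split between them with error. Fads2 and Fads1 desaturate long polyunsaturated chains, and they rose by 1.74 (SE 0.11, adjusted p = 7.01e-10) and 1.06. Srebf1, the transcription factor that drives this pathway, rose from 132 to 321 CPM (1.28, SE 0.09, adjusted p = 2.82e-09). Acaca, the first committed enzyme, rose by 0.71, and the synthase Fasn by 0.25, a call lost in 5 of the 6 fits without a single library (adjusted p 0.081 to 0.196). The falls in the synthesis list included genes of uptake and storage: Cd36, a fatty acid transporter (-2.57, SE 0.13, adjusted p = 2.08e-11), Lpl, lipoprotein lipase (-1.74), Dgat2, the last enzyme of triglyceride synthesis (-1.41), and Pparg, the master factor of fat cells (-1.61). Srebf1, Scd1, Scd2, Acaca, Fasn and Dgat2 were picked after their values were seen.

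Genes of fatty acid use fell at several steps. Pdk4, which keeps pyruvate out of the citric acid cycle when fat is burned, was at 93.0, 82.1 and 101 CPM at 48 h and 7.88, 7.98 and 8.69 CPM at 96 h. The groups were far apart, and the log2 fold change of -3.49 (SE 0.10) was an 11.2-fold drop. Angptl4, a secreted inhibitor of lipoprotein lipase and a target of PPAR factors, was at 219.6, 235 and 233 CPM at 48 h and 30.1, 32.8 and 29.7 CPM at 96 h, a log2 fold change of -2.89 (SE 0.09). Cpt1a, the gate for fatty acids into mitochondria, was at 159, 167 and 176 CPM at 48 h and 65.8, 67.2 and 64.5 CPM at 96 h, a log2 fold change of -1.34 (SE 0.07), and its relative Cpt1c fell (-1.50). The 2 subunits of the trifunctional oxidation enzyme, Hadha and Hadhb, fell (-0.76 and -0.72). Echs1 (0.64) and Acadm (0.37) were the 2 members that rose. Pdk4, Angptl4 and Cpt1a had log2 fold changes of 1.38, 2.11 and 1.70 in monolayers, and the differences between formats were -4.86, -5.00 and -3.04, with adjusted p values of 4.63e-14, 1.73e-14 and 1.21e-13. Of 14 adipocyte markers 6 were too low to test (Adipoq, Lep, Cfd, Cidec, Retn and Car3), 7 fell and 1 rose. Lpl and Pparg stand in this list too. The falls included Fabp4 (-2.58, SE 0.11, adjusted p = 1.9e-12), Plin4 (-2.20) and Plin1 (-3.85), and the summed level of the tested and untested markers ranged over 734 to 764 CPM at 48 h and 282 to 284 CPM at 96 h. Cd36, Fabp4, Lpl and Pparg are also used by endothelial and epithelial cells, and the part of adipocytes in these falls was not tested.

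Cholesterol synthesis rose modestly. Of 25 tested genes, 13 rose and 2 fell, with a median of 0.27. Insig1, which holds the SREBP precursor in the endoplasmic reticulum and is itself a target, rose by 1.0 (SE 0.08, adjusted p = 1.81e-08), Pmvk by 0.67 and Mvd by 0.54. In monolayers 23 of these genes fell, 1 rose and their median was -1.42; the test of the difference passed in 22 with the spheroid change above.

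Genes of mesenchymal cells and their matrix fell steeply. Of 20 tested genes of mesenchymal transition 19 fell and none rose (median -1.80), beside 20.5% of all tested genes that fell. Snai1, a repressor of E-cadherin, was at 31.9, 32.4 and 34.4 CPM at 48 h and 4.43, 4.69 and 4.60 CPM at 96 h, a log2 fold change of -2.84 (SE 0.12). Zeb1 fell (-2.23, SE 0.14, adjusted p = 4.28e-10) and Twist2 (-2.20, SE 0.12, adjusted p = 9.16e-11); both are transcription factors of the same program. Snai2, a relative of Snai1 that basal mammary cells use, did not pass (-0.04, SE 0.15). Fn1, fibronectin, was at 1577, 1585 and 1579 CPM at 48 h and 523, 512 and 461 CPM at 96 h, a 3.17-fold fall with no overlap. Vim, the intermediate filament of mesenchymal cells, fell (-0.83, SE 0.08, adjusted p = 1.48e-07), and Col5a1 (-2.41, SE 0.11, adjusted p = 9.55e-12).

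Markers of fibroblasts moved with this group. 17 of 18 fell and none rose (median -1.47), and their summed level ranged over 3604 to 3920 CPM at 48 h and 1161 to 1200 CPM at 96 h. Pdgfra, a growth factor receptor of fibroblasts, was at 96.8, 85.2 and 90.3 CPM at 48 h and 17.4, 19.2 and 18.9 CPM at 96 h, a log2 fold change of -2.29 (SE 0.10, adjusted p = 4.67e-12). Col6a2 and Col6a3, chains of type VI collagen, fell (-2.24 and -2.19), and Col1a1 (-1.70) from 719 to 221 CPM. No fibroblast marker was at 0 in the spheroids. Endothelial markers fell too, 15 of 16 (median -2.15, or -0.74 with limma on log2(FPKM + 1), a scale that understates changes of low genes), and their summed level ranged over 109 to 130.0 CPM at 48 h and 51.1 to 56.9 CPM at 96 h. Cdh5, the cadherin of vessels, was at 13.1, 9.50 and 12.6 CPM at 48 h and 2.68, 3.13 and 2.08 CPM at 96 h, and Pecam1 at 10.2, 6.60 and 7.01 CPM at 48 h and 1.68, 1.89 and 1.93 CPM at 96 h. Both were low and both were lower in each 96 h library, with falls of -2.17 (SE 0.19, adjusted p = 3.09e-08) and -2.12 (SE 0.23, adjusted p = 5.06e-07). Of 6 tested immune markers 3 fell and 1 rose, the one that rose being Cd14 (0.86), which luminal mammary cells also express; the other 14 of 20 were too low to test, and Nkg7, of natural killer cells, was at 0 in all 6 libraries. The summed level of the immune list was 296 to 329 CPM at 48 h and 489 to 571 CPM at 96 h, of which Cd14 alone held a mean of 274 and 497 CPM. The part of immune cells in the interferon and inflammatory results was not tested. The part of these other cell types in the falls of mesenchymal, matrix and protease genes was not tested. In monolayers 14 fibroblast markers fell and 2 rose (median -1.63), and the difference passed in 8 with the spheroid change above and 6 with it below. Pdgfra was among those that rose there (1.54), a difference of -3.83 (SE 0.14, adjusted p = 2.03e-13). In the same libraries 6 endothelial markers rose and 2 fell (median 0.28), and the test of the difference passed in 12 endothelial markers with the spheroid change below.

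Matrix and adhesion genes fell broadly, with named exceptions. Of 30 tested basement membrane genes 18 fell and 7 rose (median -0.44). Type IV collagen split by chain: Col4a1, at 1391, 1447 and 1374 CPM at 48 h and 503, 532 and 526 CPM at 96 h, fell (-1.43, SE 0.08, adjusted p = 1.03e-10) and Col4a2 (-1.29), while Col4a5 and Col4a6 rose by 0.74 and 0.86. Perlecan (Hspg2, -1.51), nidogens (Nid1, -1.14; Nid2, -2.04) and the laminin chains Lama3 (-1.31) and Lamc1 (-1.0) fell. Lama5 fell less (-0.40, SE 0.12, adjusted p = 0.0112), and its call was lost without the third 96 h library (adjusted p = 0.0578). Bcam, a receptor of laminin alpha 5 on epithelial cells, rose by 0.85 (SE 0.08, adjusted p = 1.51e-07). Col4a2, Col4a5, Nid1 and Lamc1 were picked after their values were seen. In monolayers 21 of the 30 basement membrane genes fell too and 3 rose (median -0.61). The difference passed in 11 with the spheroid change above and 11 with it below. Matrix proteases and their inhibitors showed 24 falls and 3 rises among 33 in spheroids (median -0.56). Mmp9, a gelatinase, was at 16.4, 14.7 and 11.2 CPM at 48 h and 1.30, 1.56 and 2.23 CPM at 96 h, a log2 fold change of -3.05 (SE 0.22, adjusted p = 2.5e-09). Serpinb2, an inhibitor of plasminogen activators, fell (-2.86, SE 0.14, adjusted p = 2.05e-11), as did the collagenase Mmp13 (-1.88). Adamts5 (1.31, SE 0.16, adjusted p = 1.88e-06) and the membrane protease Mmp15 (0.64) rose.

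Among 20 tested integrins 12 fell and 2 rose (median -0.58). Itga5, which pairs with the beta 1 chain into the fibronectin receptor, was at 230.5, 247 and 232 CPM at 48 h and 61.4, 59.2 and 55.2 CPM at 96 h, a log2 fold change of -2.01 (SE 0.07, adjusted p = 1.26e-13). Itgb3, Itgb6 and Itga9 fell (-1.32, -1.30 and -1.91). The laminin receptor chain Itga6 fell (-0.37, SE 0.08, adjusted p = 0.00122), less than these, and Itgb1, the shared beta 1 chain, did not pass at -0.18 (SE 0.07, adjusted p = 0.065), although it passed in 8 of 16 alternative settings. Itga8 and Itgb8 rose by 1.10 and 0.68. Of 36 focal adhesion and actomyosin genes 13 fell and 6 rose, with a median of -0.07, near that of all genes. In monolayers 35 of them fell and none rose (median -0.89). The difference passed in 31 with the spheroid change above and 1 with it below. The largest falls in spheroids were in Tns1 (-1.81), Tagln (-1.41), Myl9 (-1.38) and Acta2 (-1.28, SE 0.14, adjusted p = 8.3e-07). Acta2, smooth muscle actin, is made by myoepithelial cells and myofibroblasts. Myh10, a non-muscle myosin, rose by 0.38 (SE 0.08, adjusted p = 0.000751) and the tropomyosin Tpm1 by 0.36 (SE 0.07, adjusted p = 0.000302). Of 27 targets of YAP and TAZ, the Hippo pathway's coactivators, 4 rose and 9 fell, in all 48.1%, beside 39.8% of all tested genes. Changes over 2-fold were 2 falls and 1 rise, that of Ankrd1 (1.18, SE 0.10, adjusted p = 2.99e-08). Ccn2 did not pass (-0.15, SE 0.10, adjusted p = 0.246).

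Epithelial junction and polarity genes went the other way. Of 50 tested members 23 rose and 6 fell (median 0.17). Tjp3, a scaffold of tight junctions, was at 36.3, 44.9 and 40.1 CPM at 48 h and 99.7, 108 and 99.7 CPM at 96 h, a rise of 1.34 (SE 0.08, adjusted p = 3.58e-10). Grhl3, a transcription factor of barrier epithelia, rose by 1.52 (SE 0.15, adjusted p = 1.36e-07), and Marveld2, which seals corners where 3 cells meet, by 0.86 (SE 0.07, adjusted p = 1.5e-08). Cdh1, E-cadherin, was at 685, 696 and 701.7 CPM at 48 h and 817, 842 and 809 CPM at 96 h, a small rise of 0.24 (SE 0.06, adjusted p = 0.00511). The member with the deepest fall was the gap junction gene Gjb2 (-0.86). In monolayers 37 members fell and 3 rose, and the difference passed in 40 with the spheroid change above.

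The luminal and the basal marker lists each held rises and falls. Of 23 luminal markers 9 rose and 11 fell. Pgr, the progesterone receptor, was at 91.1, 83.8 and 79.8 CPM at 48 h and 35.8, 37.7 and 37.9 CPM at 96 h, a log2 fold change of -1.20 (SE 0.07, adjusted p = 1.52e-10). Esr1, the oestrogen receptor, fell (-1.06, SE 0.14, adjusted p = 9.95e-06), its cofactor Foxa1 (-1.06), and Cited1, a coactivator, (-1.72). Areg, a growth factor that oestrogen induces in luminal cells, was at 130.5, 136 and 138 CPM at 48 h and 44.3, 46.3 and 42.5 CPM at 96 h, a log2 fold change of -1.61 (SE 0.08), and Wnt4, a signal downstream of progesterone, fell (-1.21, SE 0.12, adjusted p = 2.22e-07). Among markers used for luminal progenitors, Ehf rose by 0.90 (SE 0.07, adjusted p = 5.72e-09), Kit, a receptor tyrosine kinase, by 0.80 (SE 0.07, adjusted p = 1.88e-08), and Cd14 by 0.86, while Aldh1a3 fell (-0.47). Itgb3, also in the luminal list, fell further (-1.32, SE 0.07, adjusted p = 5.17e-11). Esr1, Foxa1, Kit and Aldh1a3 were picked after their values were seen. Of the luminal keratins, Krt18 rose by 0.25 (SE 0.07, adjusted p = 0.00903) and Krt8 did not pass (-0.16, SE 0.07, adjusted p = 0.0857). Over the list of progesterone and oestrogen response 9 of 19 fell and 2 rose, and in monolayers 8 rose and 2 fell; the difference passed in 13 with the spheroid change below.

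Of 24 basal and myoepithelial markers 14 fell and 4 rose (median -0.64). Krt5 was at 220.1, 217 and 212 CPM at 48 h and 133, 137 and 123 CPM at 96 h, a log2 fold change of -0.72 (SE 0.07, adjusted p = 8.46e-08), and Krt17 fell (-1.75, SE 0.10, adjusted p = 8.89e-11), but Krt14, the partner of Krt5, did not pass (-0.19, SE 0.08, adjusted p = 0.0613) and nor did Trp63, the factor of basal cells (-0.11, SE 0.09). Myh11, smooth muscle myosin, fell (-2.18), and Acta2 went from 48.0 to 19.7 CPM. Oxtr, the oxytocin receptor by which myoepithelial cells eject milk, rose by 1.16 (SE 0.08, adjusted p = 2.25e-09), and Dll1, a Notch ligand, by 1.08 (SE 0.13, adjusted p = 2.13e-06). Genes of keratinization, the program of skin barrier cells, fell in 17 of 22 tested (median -1.37), with Krt6a from 547 to 162 CPM (-1.75, SE 0.09, adjusted p = 3.4e-11), Krt16 (-2.13) and the kallikrein protease Klk6 (-1.56). Casp14 was the 1 member that rose (0.65), a call lost in 5 of the 6 fits without a single library (adjusted p 0.0575 to 0.168). Kallikreins and small proline-rich genes form families of similar sequence, and 12 of 34 members were too low to test.

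Genes of chromosome segregation rose slightly. Of 42 tested genes of the mitotic spindle and cytokinesis 30 rose and none fell (median 0.29); of 41 spindle checkpoint and kinetochore genes 24 rose and none fell (median 0.31); and of 23 cohesin and condensin genes 12 rose and none fell (median 0.25). The rises of single genes were under 2-fold, except for 1 member of the kinetochore list with a log2 fold change of 1.28. Mki67, the proliferation marker, was at 371, 319 and 352 CPM at 48 h and 515, 418 and 467 CPM at 96 h, a rise of 0.43 (SE 0.13, adjusted p = 0.0125) with no overlap; the call was lost without the second 48 h or the first 96 h library (adjusted p 0.0622 to 0.0623). Ccnb2, a mitotic cyclin, was at 49.6, 59.1 and 59.8 CPM at 48 h and 89.1, 84.9 and 84.2 CPM at 96 h, a rise of 0.62 (SE 0.09, adjusted p = 2.91e-05), while Ccnb1 rose by 0.25 (SE 0.07, adjusted p = 0.00763). Nusap1, which bundles spindle microtubules, rose by 0.62, and Cdc25c, the phosphatase that opens mitosis, by 0.84. Bub1b, a checkpoint kinase that holds anaphase until chromosomes are attached, was at 44.3, 43.7 and 41.1 CPM at 48 h and 61.5, 58.2 and 63.2 CPM at 96 h, a rise of 0.50 (SE 0.10, adjusted p = 0.000414). Mad2l1, which acts in the same brake, was at 68.3, 72.8 and 66.2 CPM at 48 h and 92.4, 89.8 and 88.4 CPM at 96 h, a rise of 0.38 (SE 0.07, adjusted p = 0.00014). Neither gene overlapped between times. Cdc20, the activator that the checkpoint restrains, rose by 0.25 (SE 0.09, adjusted p = 0.0455), and that call was lost in 12 of 16 alternative settings, each fit without one of the 6 libraries included (adjusted p 0.0546 to 0.137 in those fits). The acetyltransferase Esco2 (0.66), which locks cohesin on sister chromatids, and the cohesin ring members Rad21 (0.50) and Smc3 (0.44) rose. One further riser of the spindle list is a row that merges the reads of another gene and is not described.

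DNA replication genes did not share this rise. Of 50 tested 6 rose and 3 fell (median 0.04), a smaller share than among all genes. Mcm2, a subunit of the replicative helicase, was at 109, 127 and 116 CPM at 48 h and 109, 104 and 99.4 CPM at 96 h and did not pass (-0.17, SE 0.07, adjusted p = 0.0792), and its groups overlapped. Rrm2, which makes deoxynucleotides, fell (-0.44, SE 0.09, adjusted p = 0.000705), and the licensing factor Cdt1 (-0.26, SE 0.09, adjusted p = 0.0327), while Tk1 rose by 0.28. Leaving out a single library ended the call of Cdt1 in 5 of 6 fits (adjusted p 0.0601 to 0.153) and of Tk1 in 4 (adjusted p 0.0528 to 0.0823).

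In the monolayer libraries most of these genes fell over the same time. There 41 spindle and cytokinesis genes fell and none rose (median -3.00), 37 checkpoint and kinetochore genes fell and none rose (median -1.82), and 44 replication genes fell and 1 rose (median -1.06), beside 31.3% of all tested genes that fell in monolayers. Of the cohesin and condensin genes 14 fell there and 4 rose (median -0.37), and the difference passed in 16 with the spheroid change above and 3 with it below. Rrm2 fell in both formats (-1.84 in monolayers). The test of the difference passed with the spheroid change above in 41 of 42, 37 of 41 and 44 of 50 genes. For Mki67 the difference was 3.41 (SE 0.20, adjusted p = 1.49e-10), for Ccnb1 4.63 (SE 0.14, adjusted p = 3.29e-14), for Bub1b 3.01 (SE 0.18, adjusted p = 1.23e-10) and for Mcm2 0.74 (SE 0.11, adjusted p = 2.29e-05). The plot of cell cycle genes shows a larger change in monolayers than in spheroids for each gene plotted except Cdkn1a, which had a log2 fold change of 0.10 in monolayers (adjusted p = 0.135).

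**Figure D3:**
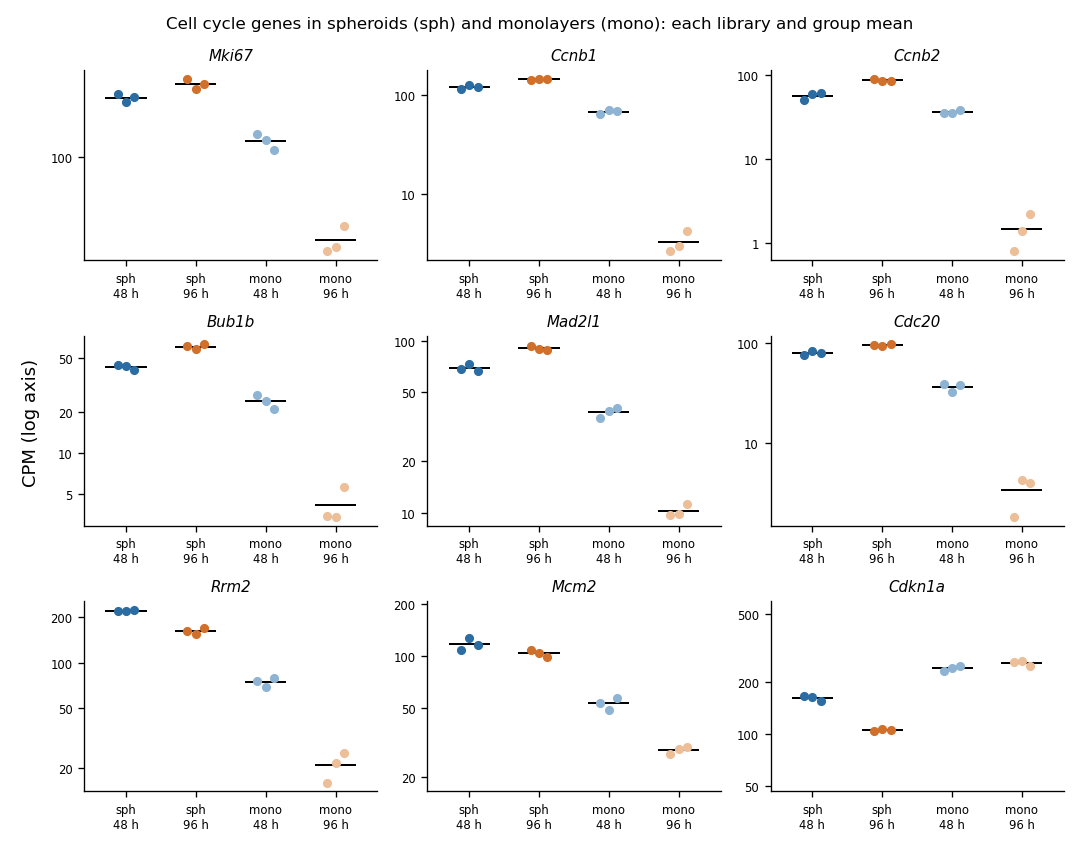
Level of 9 cell cycle genes in all 12 libraries, as CPM on a log axis scaled per gene; points are libraries, bars are means of 3, and colours mark format and time. In spheroids Ccnb1 went from 122 to 145 CPM, while in monolayers the 96 h libraries lay below those at 48 h for each gene plotted except Cdkn1a.

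Promoters of the segregation genes were searched for CCAAT, the box bound by NF-Y, and TTTGAA, the cell cycle homology region, on both strands in the 250 bases before the start. CCAAT was in 24 of the 35 spindle and cytokinesis genes with an entry (68.6%), in 19 of 36 checkpoint and kinetochore genes (52.8%), and in 37.5% of all genes with an entry. TTTGAA was in 45.7% and 22.2% of these lists and in 18.3% of all genes. The window of Ccnb2 is shown because this gene had one of the largest rises of its list and holds both motifs. Its 3 CCAAT boxes and 1 TTTGAA do not overlap. The boxes begin 87, 54 and 21 bases before the start, and the TTTGAA lies farther from it, at 167 bases. A match describes the letters and not the binding of a factor.
Ccnb2 (chr9:70421555-70421804, minus strand): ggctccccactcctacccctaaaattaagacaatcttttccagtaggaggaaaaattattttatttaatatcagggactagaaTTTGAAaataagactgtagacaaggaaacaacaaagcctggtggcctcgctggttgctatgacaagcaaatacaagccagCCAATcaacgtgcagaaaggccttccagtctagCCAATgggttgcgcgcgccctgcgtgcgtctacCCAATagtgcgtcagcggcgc

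Of 30 tested genes in the list of p53 targets, which also holds Trp53, the gene of p53, 13 fell and 4 rose (median -0.16). Cdkn1a, the cyclin-dependent kinase inhibitor p21, was at 167, 165 and 156 CPM at 48 h and 104, 108 and 106 CPM at 96 h, a log2 fold change of -0.62 (SE 0.06, adjusted p = 1.56e-07). Dcxr, a sugar reductase, rose by 1.22 (SE 0.13, adjusted p = 4.28e-07). Gadd45a fell (-0.84) and the death receptor Fas (-0.95), while Bbc3, the death-promoting protein Puma, rose by 1.01 (SE 0.15, adjusted p = 2.56e-05). Trp53 itself did not pass (-0.13, SE 0.07, adjusted p = 0.176). In monolayers 18 genes of this list rose and 3 fell, and the difference passed in 19 with the spheroid change below. Among 28 genes of the Bcl2 family and caspases 9 rose and 2 fell (median 0.16), in all 39.3%, beside 39.8% of all tested genes. The risers act on both sides of cell death: Bid, which relays death signals to mitochondria, was at 72.6, 72.6 and 73.2 CPM at 48 h and 118, 115 and 116 CPM at 96 h, a rise of 0.67 (SE 0.06, adjusted p = 3e-08), and Bcl2, which blocks that step, rose by 0.77 (SE 0.10, adjusted p = 4.77e-06).

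Genes of the oxidative stress response fell widely. Of 34 tested targets of Nrf2 and genes of glutathione use, 29 fell and 1 rose (median -0.69). Nfe2l2, which encodes Nrf2, did not pass (0.03, SE 0.06), nor did its inhibitor Keap1 (0.11, SE 0.08). Gsta1, a glutathione transferase, was at 39.7, 46.0 and 32.2 CPM at 48 h and 0.917, 0.658 and 0.743 CPM at 96 h, the deepest fall of any listed gene at -5.64 (SE 0.20, adjusted p = 2.63e-13). Its family members share sequence, so the split of reads between them is uncertain, and Gsta4 (-1.65) and Gsta3 (-0.68) also fell. Slc7a11, which imports cystine for glutathione synthesis, was at 245, 212 and 225 CPM at 48 h and 53.1, 46.1 and 46.6 CPM at 96 h, a log2 fold change of -2.23 (SE 0.10), and Gclc, a subunit of the ligase of that pathway, fell (-1.44, SE 0.07, adjusted p = 2.62e-11), with its partner Gclm at -0.70. Hmox1, heme oxygenase, was at 490.3, 526 and 508 CPM at 48 h and 173, 169.7 and 166 CPM at 96 h, a log2 fold change of -1.58 (SE 0.08). Nqo1 fell (-1.78, SE 0.07, adjusted p = 2.09e-12) and the exporter Abcc4 (-3.02, SE 0.12, adjusted p = 1.39e-12). The ferritin chain Fth1, one of the most abundant transcripts at a mean of 7617 and 4740 FPKM, a level scaled for gene length, at 48 h and 96 h, fell (-0.67, SE 0.09, adjusted p = 1.04e-05). Mgst1 was the 1 member that rose (0.42). Hmox1, Nqo1, Gclc, Gclm, Gsta3 and Gsta4 were picked after their values were seen.

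In monolayers 21 of these genes rose and 5 fell (median 0.61), and the difference passed in 27 with the spheroid change below and 4 with it above, beside 26.4% and 26.9% of all tested genes. Hmox1 rose by 2.54 in monolayers, a difference of -4.13 (SE 0.12, adjusted p = 2.8e-14), and Slc7a11 rose by 2.54, a difference of -4.76 (SE 0.15, adjusted p = 4.7e-14). The motif TGACNNNGC, the core of the antioxidant response element, was added to the search after the values were seen. It was in 27.6% of the 29 list members with an entry and in 11.5% of all genes.

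**Figure D4:**
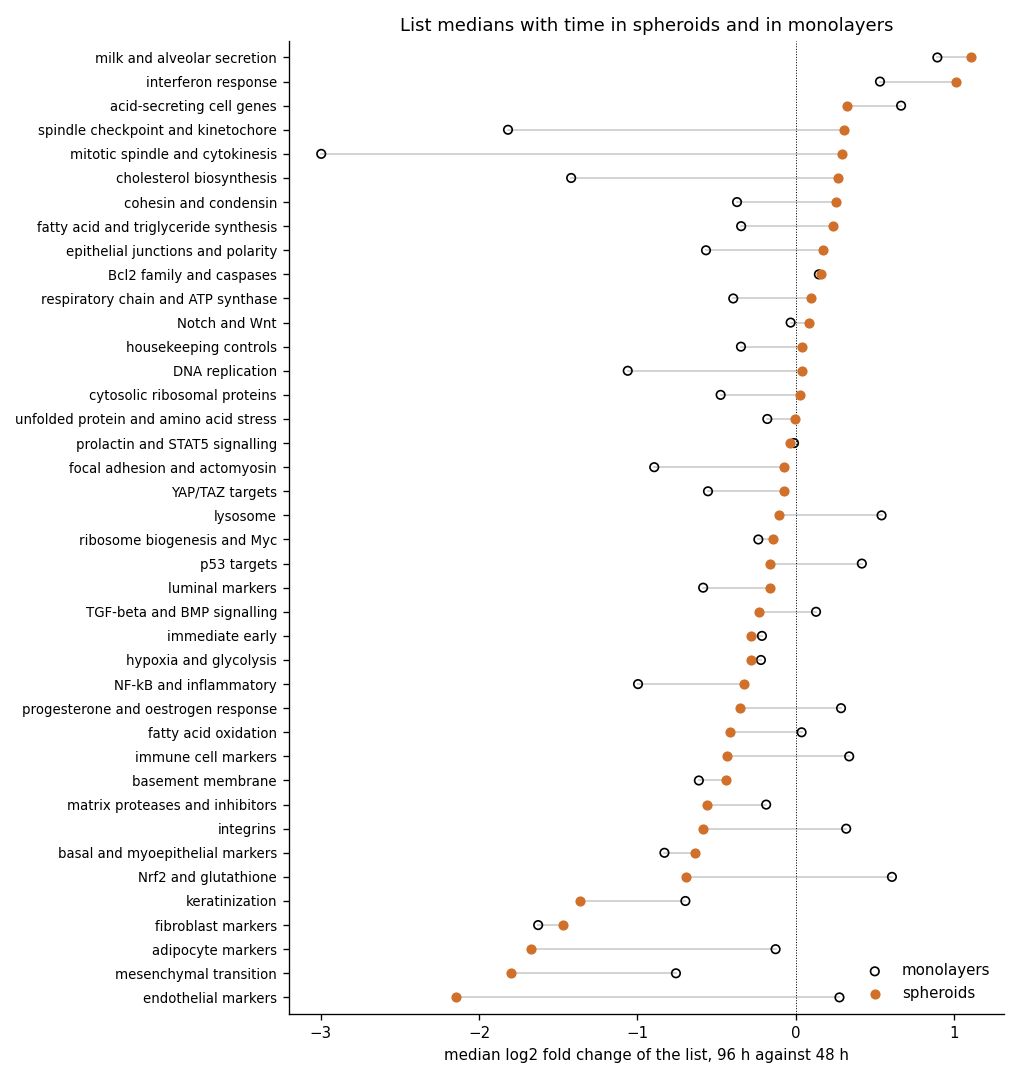
Median log2 fold change of each of the 40 gene lists at 96 h against 48 h, in spheroids (filled) and monolayers (open), joined by a line. The spindle list had medians of 0.29 in spheroids and -3.00 in monolayers, and the Nrf2 list -0.69 and 0.61, on opposite sides of 0.

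The list of protein folding and amino acid stress moved in both directions. Of 30 tested members 11 rose and 8 fell, with a median near 0. Atf4, the factor that turns on amino acid genes when translation is held back, was at 196, 191 and 173 CPM at 48 h and 295, 328 and 333 CPM at 96 h, a rise of 0.77 (SE 0.09, adjusted p = 1.29e-06). Asns, which makes asparagine, was at 52.8, 57.0 and 51.1 CPM at 48 h and 137, 144 and 144 CPM at 96 h, a rise of 1.40 (SE 0.07). Psat1 and Phgdh, enzymes of serine synthesis, rose by 1.40 (SE 0.06, adjusted p = 7.31e-12) and 0.68, Chac1, which degrades glutathione, by 1.96 (SE 0.13, adjusted p = 6.31e-10), and the transporter Slc7a5 by 0.97. Hspa5, the main chaperone of the endoplasmic reticulum, did not pass (-0.13, SE 0.07, adjusted p = 0.178), and the chaperones Hyou1 (-0.41, SE 0.07, adjusted p = 0.000175) and Calr (-0.31) fell. Slc7a11, described above, is also a target of Atf4 and went the other way. The window of Asns is shown because it is the textbook Atf4 target; TGATGNAA, the composite element that Atf4 binds, was added to the search after the values were seen, and the window holds it 23 bases before the start. It was in 5 of 27 members with an entry (18.5%) and in 3.9% of all genes.
Asns (chr6:7693210-7693459, minus strand): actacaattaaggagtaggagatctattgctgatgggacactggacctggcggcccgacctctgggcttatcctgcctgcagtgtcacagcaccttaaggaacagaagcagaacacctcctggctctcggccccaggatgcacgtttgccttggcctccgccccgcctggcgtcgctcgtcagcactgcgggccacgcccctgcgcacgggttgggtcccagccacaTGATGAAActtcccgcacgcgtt

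Interferon-stimulated genes rose, the steepest from low counts. Of 29 tested 23 rose and none fell (median 1.01), and their summed level ranged over 281 to 301 CPM at 48 h and 466 to 520.3 CPM at 96 h. Irf7, the factor that amplifies the response, was at 2.56, 2.32 and 2.0 CPM at 48 h and 7.26, 9.13 and 10.9 CPM at 96 h, a rise of 1.98 (SE 0.26, adjusted p = 7.57e-06). Each 96 h library lay above each 48 h library, with the third the highest. Oasl2 rose by 1.51 (SE 0.32, adjusted p = 0.00106), Parp9 by 1.01 (SE 0.10, adjusted p = 2.1e-07) and its partner Dtx3l by 0.95. The steepest rises were in genes with few counts, named after their values were seen: Rtp4 had 34 counts at 48 h and 369 at 96 h in all (2.97, SE 0.31, adjusted p = 3.49e-07), Ifit3 16 and 170 (2.93, SE 0.52, adjusted p = 0.00018), Ifit1 15 and 151 (2.85, SE 0.40, adjusted p = 1.66e-05) and Isg15 44 and 201 (1.73, SE 0.37, adjusted p = 0.00108). Stat2 and Irf9, which bind together to their promoters, rose by 0.38 and 0.91; the call of Stat2 was lost without the third 48 h library (adjusted p = 0.0595). In monolayers 15 of the list rose and 5 fell, and the difference passed in 18 with the spheroid change above.

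The promoters of Ifit1, Ifit3 and Isg15 are shown because they carry the interferon-stimulated response element, GAAA repeated after 2 bases of any kind, which was added to the search after the values were seen. It was in 11 of the 22 list members with an entry (50%) and in 3.5% of all 27025 genes. Neighbouring matches in Isg15 overlap. The motif was searched on both strands, and in Ifit1 and Ifit3 it lies on the other strand.
Ifit1 (chr19:34640639-34640888, plus strand): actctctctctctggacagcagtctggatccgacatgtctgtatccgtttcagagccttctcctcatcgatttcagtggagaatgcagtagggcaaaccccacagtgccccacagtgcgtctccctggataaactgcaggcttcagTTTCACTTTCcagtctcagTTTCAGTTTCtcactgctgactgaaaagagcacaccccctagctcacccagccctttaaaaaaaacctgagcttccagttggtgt
Ifit3 (chr19:34583279-34583528, plus strand): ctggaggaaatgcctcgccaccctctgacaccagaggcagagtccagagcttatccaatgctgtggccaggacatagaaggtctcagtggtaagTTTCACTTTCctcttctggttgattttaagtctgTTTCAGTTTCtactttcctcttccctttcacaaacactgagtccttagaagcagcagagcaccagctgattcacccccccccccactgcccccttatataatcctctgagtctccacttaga
Isg15 (chr4:156200819-156201068, minus strand): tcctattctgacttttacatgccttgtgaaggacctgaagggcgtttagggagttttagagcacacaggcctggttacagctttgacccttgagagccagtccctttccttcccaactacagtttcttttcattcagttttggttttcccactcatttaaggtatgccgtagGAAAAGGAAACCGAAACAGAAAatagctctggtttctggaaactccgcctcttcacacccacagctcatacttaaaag

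Inflammatory genes did not follow the interferon genes. Of 33 tested NF-kB and inflammatory genes 15 fell and 5 rose (median -0.33). Ptgs2, the inducible cyclooxygenase, was at 350.3, 283 and 329 CPM at 48 h and 72.3, 82.8 and 74.7 CPM at 96 h, a log2 fold change of -2.07 (SE 0.08, adjusted p = 8.96e-13). The monocyte attractant Ccl2 fell (-3.12, SE 0.14, adjusted p = 3.25e-12) and its relative Ccl7 (-2.84). Cxcl5, an attractant of neutrophils, rose by 1.59 (SE 0.08, adjusted p = 1.97e-11), and Lcn2, an iron-scavenging defence protein found in milk, was at 1312, 1499 and 1386 CPM at 48 h and 3241, 3601 and 3637 CPM at 96 h, a rise of 1.32 (SE 0.08). Of 35 immediate early genes 18 fell and 4 rose (median -0.28). Fosl1, a transcription factor induced by growth signals, fell (-1.57, SE 0.08, adjusted p = 4.02e-11), Egr2 (-1.56) and Ereg, an EGF receptor ligand, (-1.61), whereas Dusp6, a brake on ERK, rose by 0.84 (SE 0.08, adjusted p = 9.72e-08) and Egr3 by 0.95. Of 34 TGF-beta and BMP genes 14 fell and 3 rose, and the feedback gene Smad7 (-1.45, SE 0.09, adjusted p = 1.59e-10) and the target Id3 (-1.20) were among the falls. Of 37 Notch and Wnt genes 11 fell and 6 rose, in all 45.9%, near the share of all tested genes. Their median was 0.09, and its sign depends on the processing (-0.01 to 0.1). The ligands Wnt5a (-1.34) and Wnt11 (-2.34) and the receptor Fzd1 (-1.45, SE 0.08, adjusted p = 4.31e-11) fell, and the Notch ligand Dll1 (1.08) and the Wnt inhibitor Nkd2 (0.89, SE 0.08, adjusted p = 6.29e-08) rose.

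Glycolytic and hypoxia genes fell. Of 33 tested 21 fell and 3 rose (median -0.28). P4ha1, a collagen prolyl hydroxylase induced by low oxygen, was at 155, 158 and 169 CPM at 48 h and 56.1, 51.7 and 55.8 CPM at 96 h, a log2 fold change of -1.56 (SE 0.07, adjusted p = 3.25e-12). Vegfa, the vessel growth factor, was at 139.5, 118 and 126 CPM at 48 h and 68.7, 66.2 and 64.4 CPM at 96 h, a log2 fold change of -0.94 (SE 0.07, adjusted p = 4.95e-09). The lactate exporter Slc16a3 fell (-1.46, SE 0.09, adjusted p = 2.19e-10) and Adm (-1.53), while Car9, a carbonic anhydrase that hypoxia induces, rose by 0.55 (SE 0.09, adjusted p = 6.95e-05) and Ddit4 by 0.60 (SE 0.09, adjusted p = 2.48e-05). Lists of basic cell machinery moved little. Of 47 cytosolic ribosomal protein genes 7 rose and 2 fell (median 0.03), and of 49 respiratory chain genes 11 rose and none fell (median 0.10). Ribosome biogenesis genes showed 14 falls and no rise among 37 (median -0.14), Myc among them (-0.44, SE 0.07, adjusted p = 2.63e-05). Of 40 lysosomal genes 14 fell and 5 rose (median -0.11), in all 47.5%, beside 39.8% of all tested genes. In monolayers 32 rose and 4 fell, and the difference passed in 32 with the spheroid change below. Of 10 tested genes of acid-secreting cells 4 rose and 2 fell, with Car2 at 0.95 (SE 0.10, adjusted p = 3.22e-07) and the factor Foxi1 at -0.64 (SE 0.11, adjusted p = 0.000133). Of 21 housekeeping genes 2 rose and 5 fell (median 0.04), with Pgk1, also a glycolytic enzyme, at -0.49 and Ppia at 0.23, the latter a call lost in 6 of the 6 fits without a single library (adjusted p 0.0517 to 0.105).

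Outside the lists, the largest rises at a sufficient level were led by Gabrp, a subunit of a GABA receptor found in epithelia, at 3.88, 4.40 and 3.45 CPM at 48 h and 57.3, 57.4 and 62.1 CPM at 96 h, a rise of 3.91 (SE 0.12, adjusted p = 5.05e-14). Cbr2, a carbonyl reductase, was at 17.4, 19.3 and 19.6 CPM at 48 h and 211, 245 and 272 CPM at 96 h, a rise of 3.69 (SE 0.12, adjusted p = 1.5e-13), and Lbp, which binds bacterial lipopolysaccharide, rose by 3.04 (SE 0.12, adjusted p = 7.42e-13). The choice was limited to genes whose groups did not overlap, and these 3 rose by over 8-fold. Arg1, which splits arginine, rose by 2.32, the peptide transporter Slc15a2 by 2.51, transferrin (Trf), an iron carrier of milk and plasma, by 2.25 (SE 0.09, adjusted p = 7.18e-13), the sialyltransferase St6gal1 by 2.13, Fbxo32 by 2.29, Sostdc1, a secreted inhibitor of BMP and Wnt signals, by 2.24, Cyp2f2 by 2.72 and the metallothionein Mt3 by 2.07. One further row that met the rule had no count in 2 of the 48 h libraries and is not described. The largest falls were in Adgra2, an adhesion receptor (-2.97, SE 0.13, adjusted p = 3.32e-12), and Heph, an iron oxidase (-2.96, SE 0.14, adjusted p = 7.85e-12), followed by the matrix protein Emilin1 (-2.83), Tmem119 (-2.82), Aoc3, an amine oxidase of vessels and fat (-2.71), Padi2 (-2.66), Akr1c18, which inactivates progesterone (-2.56), Plxnd1 (-2.45), Sod3 (-2.44), Bmper (-2.39), Col5a3 (-2.38) and Adam23 (-2.36). Among the called genes with the highest FPKM, Eef1a1, a translation factor, rose by 0.27 (SE 0.08, adjusted p = 0.00982), Tpt1 by 0.28 (call lost without the third 96 h library, adjusted p = 0.0513) and Lcn2 as above, and the metallothionein Mt2 fell (-0.77, SE 0.09, adjusted p = 2.81e-06). The further rows that met that rule are not described.

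**Figure D5:**
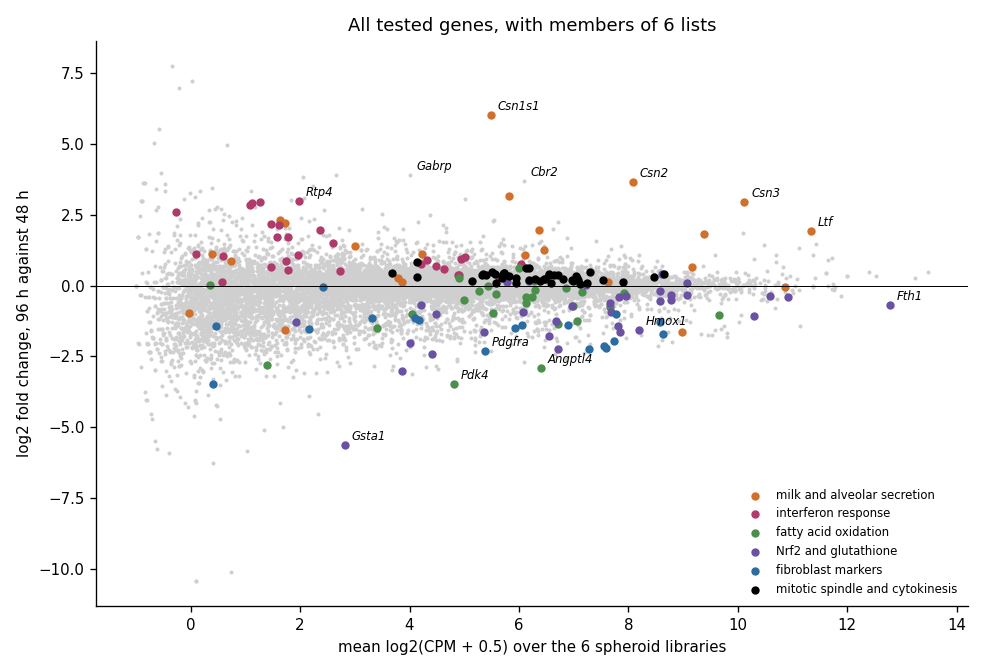
Each tested gene of the spheroid comparison by its mean log2(CPM + 0.5) over the 6 libraries (horizontal) and its log2 fold change at 96 h against 48 h (vertical), with the members of 6 lists in colour. Csn1s1 (6.04) and Gsta1 (-5.64) are the listed genes farthest from 0, and the mitotic genes lie in a narrow band just above it.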

How the data were processed

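RNA of 12 libraries was sequenced, and the 6 spheroid libraries are the subject here. The authors deposited expected counts per gene, as RSEM gives them, and log2 values of FPKM, per the file headers. The submitters' processing notes name bcl2fastq 2.15.0, Bowtie 1.0.1, RSEM 1.2.30 and the build mm9, without parameters. RSEM divides reads that fit several genes by estimate, so values of similar genes are uncertain, as are rows that merge symbols. In 338 places a count of 0 stands beside a log2 FPKM above 0.

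Counts were rounded to whole numbers and tested in R 4.3.3 with edgeR 4.0.16 (quasi-likelihood test, TMM factors) in one fit of the 4 groups, after filterByExpr (minimum count 10, total 15). Genes passed at a Benjamini-Hochberg adjusted p under 0.05 over all 13951 tested. The SE is the absolute log2 fold change divided by the square root of F. The interaction term tested the difference between formats. The scripts were tested on simulated data. Alternatives used limma 3.58.1, DESeq2 1.42.0, other scaling, filters and depth, a replicate block, and fits without single libraries.

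Row symbols were matched to current RefSeq names (28427 rows), and 1181 of 1183 listed symbols in 40 lists had a row, 26 under an older symbol. The lists, and the choice of this comparison, were made with earlier results of these data known. Named genes were a fixed set of markers, up to 4 members per list with the largest called, non-overlapping change where the mean log2 CPM reached 2, up to 2 against the majority, the 12 largest rises and falls outside the lists at a mean of at least 3, and the 10 called genes with the highest FPKM. Other genes were chosen after their values were seen. Promoters are RefSeq's of GRCm38.p6. The libraries of a group differed from each other by more than sampling noise. Some genes that the rule names are not reported here.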

Additional observations from a re-analysis of the deposited data

Results flagged for a closer look

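The genes below changed differently with time in spheroids and monolayers by the test of the difference itself (edgeR, adjusted p under 0.05), as did 53.3% of all tested genes. The value in brackets is the log2 fold change in spheroids minus that in monolayers, so a positive value means that the change in spheroids lay above. Each gene stands under the first list that holds it. Over all tested genes, 972 were higher with time in spheroids and lower in monolayers, and 933 the reverse, each past all 3 tests. Groups of 3 libraries are too small for a check of single libraries that stand apart.

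In the milk and alveolar secretion list the change was above for Csn2 (3.67), Btn1a1 (2.75), Expi (2.20), Csn3 (1.84), Csn1s1 (1.78), Muc1 (0.96) and Mfge8 (0.34), and below for Spp1 (-4.01), Plin2 (-2.54) and Cidea (-2.47). In the prolactin and STAT5 signalling list the change was above for Cish (1.39) and Nfib (0.30), and below for Socs1 (-2.27), Socs3 (-1.90), Jak2 (-0.78) and Prlr (-0.55). In the luminal markers list the change was above for Aldh1a3 (2.0), Krt18 (1.66), Krt8 (1.41), Kit (1.27), Ehf (1.17), Epcam (1.05) and Cd14 (0.68), and below for Itgb3 (-2.54), Pgr (-2.04), Cited1 (-1.95), Areg (-1.59) and Esr1 (-0.82). In the basal and myoepithelial markers list the change was above for Krt14 (2.56), Krt5 (2.19), Tagln (1.76), Acta2 (1.70) and Trp63 (0.81), and below for Snai2 (-0.77) and Itga6 (-0.69). In the spindle checkpoint and kinetochore list the change was above for Bub1b (3.01) and Mad2l1 (2.28). In the mitotic spindle and cytokinesis list the change was above for Ccnb2 (5.25), Nusap1 (5.18), Ccnb1 (4.63), Cdc25c (4.54), Cdc20 (3.74) and Mki67 (3.41). In the cohesin and condensin list the change was above for Esco2 (2.64), Rad21 (0.87) and Smc3 (0.55). In the DNA replication list the change was above for Tk1 (2.22), Rrm2 (1.40) and Mcm2 (0.74). In the p53 targets list the change was above for Trp53 (0.28), and below for Gadd45a (-2.13), Fas (-0.85) and Cdkn1a (-0.72).

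In the integrins list the change was above for Itgb6 (0.74), and below for Itga9 (-2.37) and Itga5 (-1.96). In the focal adhesion and actomyosin list the change was above for Tpm1 (1.12) and Myh10 (0.82), and below for Tns1 (-0.88). In the YAP/TAZ targets list the change was above for Ankrd1 (2.73) and Ccn2 (1.11). In the epithelial junctions and polarity list the change was above for Tjp3 (1.87), Gjb2 (1.53), Marveld2 (1.53), Grhl3 (0.91) and Cdh1 (0.87). In the mesenchymal transition list the change was below for Zeb1 (-2.34), Snai1 (-2.08), Fn1 (-1.99), Col5a1 (-0.72) and Twist2 (-0.68). In the keratinization list the change was above for Casp14 (2.23) and Klk6 (1.76), and below for Krt16 (-0.89) and Krt6a (-0.69). In the basement membrane list the change was above for Bcam (1.67), Col4a5 (0.85) and Col4a6 (0.75), and below for Nid2 (-1.28), Col4a1 (-0.97), Col4a2 (-0.86), Nid1 (-0.83), Lama3 (-0.75), Hspg2 (-0.57) and Lamc1 (-0.29). In the matrix proteases and inhibitors list the change was above for Adamts5 (1.76) and Mmp15 (0.45), and below for Mmp13 (-4.15), Serpinb2 (-2.20) and Mmp9 (-0.86). In the hypoxia and glycolysis list the change was above for Car9 (1.22) and Ddit4 (0.47), and below for Adm (-1.5), P4ha1 (-1.08), Slc16a3 (-1.0) and Vegfa (-0.67).

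In the cholesterol biosynthesis list the change was above for Pmvk (3.03), Mvd (1.77) and Insig1 (1.75). In the fatty acid and triglyceride synthesis list the change was above for Fads2 (2.33), Scd2 (2.23), Scd1 (1.83), Fads1 (1.73), Srebf1 (1.63), Acaca (1.39) and Fasn (1.14), and below for Cd36 (-3.42), Dgat2 (-1.89), Pparg (-1.16) and Lpl (-1.04). In the fatty acid oxidation list the change was above for Echs1 (1.11), and below for Angptl4 (-5.00), Pdk4 (-4.86), Cpt1a (-3.04), Cpt1c (-2.30), Hadhb (-0.60) and Hadha (-0.53). In the unfolded protein and amino acid stress list the change was above for Psat1 (2.95), Asns (2.35), Phgdh (2.28), Chac1 (1.93), Slc7a5 (1.88), Atf4 (1.17) and Calr (0.34), and below for Slc7a11 (-4.76) and Hyou1 (-0.41). In the interferon response list the change was above for Ifit1 (2.32), Rtp4 (2.19), Ifit3 (1.74), Oasl2 (1.39), Irf7 (1.37), Parp9 (1.25), Isg15 (1.24) and Dtx3l (1.01). In the NF-kB and inflammatory list the change was above for Cxcl5 (4.02), Ccl2 (0.93) and Lcn2 (0.51), and below for Ptgs2 (-0.78). In the immediate early list the change was below for Fosl1 (-1.49), Ereg (-1.08), Egr2 (-0.85) and Dusp6 (-0.52). In the acid-secreting cell genes list the change was above for Car2 (4.38), and below for Foxi1 (-5.18). In the Nrf2 and glutathione list the change was below for Gsta1 (-6.88), Gsta4 (-5.52), Abcc4 (-5.39), Gsta3 (-4.51), Hmox1 (-4.13), Fth1 (-2.76), Gclc (-2.51), Nqo1 (-2.15), Gclm (-2.06) and Mgst1 (-0.87).

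In the progesterone and oestrogen response list the change was below for Wnt4 (-1.06). In the TGF-beta and BMP signalling list the change was below for Smad7 (-1.25). In the Notch and Wnt list the change was below for Fzd1 (-1.48), Wnt5a (-0.85) and Nkd2 (-0.79). In the Bcl2 family and caspases list the change was above for Bid (0.80) and Bcl2 (0.41). In the fibroblast markers list the change was above for Col1a1 (1.25), and below for Pdgfra (-3.83). In the endothelial markers list the change was below for Cdh5 (-2.96) and Pecam1 (-2.91). In the adipocyte markers list the change was below for Fabp4 (-3.52) and Plin4 (-3.03). In the housekeeping controls list the change was above for Ppia (1.32). Among genes in no list the change was above for Gabrp (6.00), Arg1 (4.17), Cbr2 (4.14), Slc15a2 (2.80), Lbp (2.25), Fbxo32 (1.68), St6gal1 (1.5), Aoc3 (0.82) and Eef1a1 (0.76), and below for Akr1c18 (-5.17), Heph (-3.91), Plxnd1 (-3.45), Emilin1 (-3.33), Padi2 (-2.70), Mt2 (-1.97), Sod3 (-1.86), Adam23 (-1.80), Tmem119 (-1.71), Adgra2 (-1.65), Mt3 (-1.63), Bmper (-1.48) and Col5a3 (-0.88).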

How the results depend on the processing

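Every count of called genes stayed within 1.5 times its value under the alternatives tried. Leaving out 1 library gave 2152 to 2442 higher and 2385 to 2641 lower genes in spheroids, and 3495 to 3943 above and 3339 to 3781 below in the difference between formats. Other alternatives gave 2296 to 2976 higher and 2537 to 3189 lower, and 2643 to 3907 above and 3316 to 5078 below in the difference. Of the genes that differed between formats, 50.5% lay above, against 34.2% with library totals alone and 35.6% with limma on log2 FPKM, where the median difference of all genes was -0.21 and -0.15. With the replicate number as a block, 2677 genes were higher and 2826 lower in spheroids, and 3744 and 3647 in the difference. The numbers share no label of origin. Same-numbered libraries correlated at -0.0367, 0.01 and -0.0544 in their deviations from the group mean, and differently numbered ones at -0.0305 to 0.0705. These deviations include sampling noise, so the values cannot show whether same-numbered libraries share an origin. Among the genes named, the block ended the calls of Casp14, Cdc20 and Fasn and gave calls to Itgb1 (adjusted p = 0.0388) and Krt14 (adjusted p = 0.0253).

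Of 232 tested genes named in the text, 21 changed their call under some alternative, and no called gene changed direction. Without 1 library, calls were lost for Casp14, Cdc20, Cdt1, Fasn, Ppia and Tk1 under several choices of library, for Mki67 without the second 48 h or first 96 h library, for Stat2 without the third 48 h library, and for Lama5 and Tpt1 without the third 96 h library. Mki67 and Casp14 also lost their calls in DESeq2. Limma on log2 FPKM ended those of Ccnb1, Cdc20, Cdt1, Eef1a1, Fasn, Ppia, Stat2, Tk1 and Tpt1. Fitting the 6 spheroid libraries alone added calls for 9 genes, Prlr and Krt14 among them. Itgb1 was also called with DESeq2, limma, thinned counts, library totals, upper-quartile factors and the stricter filter, and Krt14 with DESeq2, library totals, upper-quartile factors and the stricter filter. List medians changed sign for prolactin and STAT5 signalling (-0.07 to 0.02), protein folding and amino acid stress (-0.03 to 0.04), Notch and Wnt (-0.01 to 0.1) and immune markers (-0.57 to 0.16). With limma on log2(FPKM + 1), which shrinks changes of low genes by construction, some medians moved by over 1.5 times. These were endothelial markers (-0.74), keratinization (-0.78), basal markers (-0.36), integrins (-0.24), interferon genes (0.67) and cholesterol synthesis (0.18). Fatty acid synthesis (0.14), acid-secreting cells (0.17, and 0.2 with thinned counts), hormone response (-0.21), NF-kB genes (-0.21) and TGF-beta (-0.15) did so too. The NF-kB median was -0.12 without the second and -0.17 without the third 48 h library, and the TGF-beta median -0.14 without the third 96 h library. Medians within 0.2 of 0 moved by that factor under other settings too. The cause of the other changes was not tested. Genes with few counts, such as Ifit1 and Lalba, are limited by depth.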
